A study of Mus musculus with 33 samples.

Results

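The genes described here are 8 components of the rod photoreceptor's light response, followed through cultures of mouse retinal cells directed towards cones or rods. They were chosen by name: Gnat1, Pde6a, Pde6b, Pde6g, Cnga1, Cngb1, Sag and Rom1. All 8 were found by symbol among the 47729 genes of the count tables. All 8 also passed the filter on low counts, which left 18150 genes to be tested.

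Total RNA had been sequenced from retinal progenitor cells, the dividing precursors of the retina's neurons and Müller glia, taken from C57BL/6J mouse retina at embryonic day 14 and kept in vitro. There were 33 libraries in 11 groups of 3, and every group shared the C57BL/6J genotype. At day 0 the groups were untreated cells, cone primed cells given COCO protein and rod primed cells given taurine and retinoic acid. At days 5, 12, 21 and 35 they were cells under cone induction with COCO protein, called cone culture here, and cells under rod induction with taurine and retinoic acid, called rod culture. COCO is a protein that cells secrete and that blocks signalling by Wnt, BMP and TGF-beta. The labels do not say whether the 3 replicates of a group came from separate cultures or animals, so the p-values measure only the spread between these libraries, which may be technical. The share of cells that had become photoreceptors is not given in the sources used here. In bulk RNA, fewer cells of a type and less RNA per cell cannot be told apart.

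In a rod, light is absorbed in stacked membrane discs of the outer segment. The activated pigment switches on the G protein transducin, whose alpha subunit is Gnat1. Transducin relieves the inhibitory gamma subunit (Pde6g) of a phosphodiesterase from its catalytic subunits Pde6a and Pde6b, and the enzyme then breaks down cyclic GMP. The fall in cyclic GMP closes a cation channel built from Cnga1 and Cngb1, and the cell hyperpolarises. Rod arrestin, encoded by Sag, binds the activated pigment and ends its signalling. Rom1 is a tetraspanin of the disc rim. Cones use their own versions of most of these proteins.

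Promoter sequences are shown because the members moved together in several comparisons and because rod genes are known targets of the transcription factors CRX and NRL. RefSeq promoters on GRCm38.p6 matched 5 of the 8 genes (Pde6b, Cnga1, Cngb1, Sag and Rom1), and the other genes were Gnat1, Pde6a and Pde6g. The 250 bases before each annotated start were searched on both strands for TAATCC, the core of the CRX motif, and for TGCTGA, a core part of the NRL motif, which do not overlap each other in these windows. Sag had 1 match to TAATCC, on the opposite strand beginning 87 bases before the start, where it reads GGATTA, and 1 match to TGCTGA beginning 187 bases before the start. Cngb1 had 2 matches to TAATCC, beginning 58 and 25 bases before the start. Pde6b had 1 match to TGCTGA, beginning 8 bases before the start, and Cnga1 had 1 match to TAATCC, beginning 228 bases before it. All 250 bases of the Cnga1 window lie in an annotated exon of Cnga1 itself, so that match is not upstream of the whole gene. Rom1 had neither. Of 27025 promoters of the same length, 6.38% held TAATCC and 15.8% held TGCTGA. A match is a description of the letters and not a measured binding site. The windows of Sag (chr1:87803430-87803679, plus strand), Cngb1 (chr8:95306586-95306835, minus strand) and Pde6b (chr5:108388123-108388372, plus strand) overlap no annotated exon and are printed 5′ to 3′ along the gene's strand, with the matches in capitals.
Sag: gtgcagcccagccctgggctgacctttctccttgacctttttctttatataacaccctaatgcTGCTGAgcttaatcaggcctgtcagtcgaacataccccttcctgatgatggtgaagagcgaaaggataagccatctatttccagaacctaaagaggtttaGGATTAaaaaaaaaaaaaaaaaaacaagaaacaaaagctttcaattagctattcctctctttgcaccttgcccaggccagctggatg
Cngb1: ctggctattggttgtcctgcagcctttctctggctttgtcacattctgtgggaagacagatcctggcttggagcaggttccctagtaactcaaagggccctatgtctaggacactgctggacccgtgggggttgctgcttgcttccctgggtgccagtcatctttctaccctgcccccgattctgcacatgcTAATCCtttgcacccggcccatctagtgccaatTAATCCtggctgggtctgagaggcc
Pde6b: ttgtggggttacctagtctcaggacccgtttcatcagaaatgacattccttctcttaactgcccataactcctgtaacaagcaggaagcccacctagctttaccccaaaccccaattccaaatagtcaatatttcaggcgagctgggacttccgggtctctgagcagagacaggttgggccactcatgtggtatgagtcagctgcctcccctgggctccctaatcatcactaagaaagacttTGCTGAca

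The libraries held 7511837 to 19166442 reads counted in genes (median 12985662). Levels are given as CPM, the counts of a gene per 1000000 counts of the library, scaled by TMM, a correction for library composition. The limit that a count of 0 allows, 3 counts, corresponded to 0.174 to 0.407 CPM, and it covers counting error only because the reads carry no molecular identifiers. Of the 264 member values (8 genes in 33 libraries), 17 were 0. Libraries of 1 group differed strongly. Replicate 2 of the rod culture at day 12 had the highest level of its group for all 8 members, and so did replicate 2 of the cone culture at day 12. Replicate 1 of the cone culture at day 21 had the lowest level of its group for all 8. Counts of members called that rest on these libraries are given with and without them. The 12 markers of retinal progenitors (Rax, Pax6 and others) had a summed level of 1613 to 1907 CPM in untreated cells and 1786 to 2006 CPM in rod culture at day 35, so the labelled cell type's markers were present. The 10 markers of Müller glia went from 857 to 1029 CPM to 5694 to 8369 CPM over the same span, and their part in the results was not tested.

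**Figure D1:**
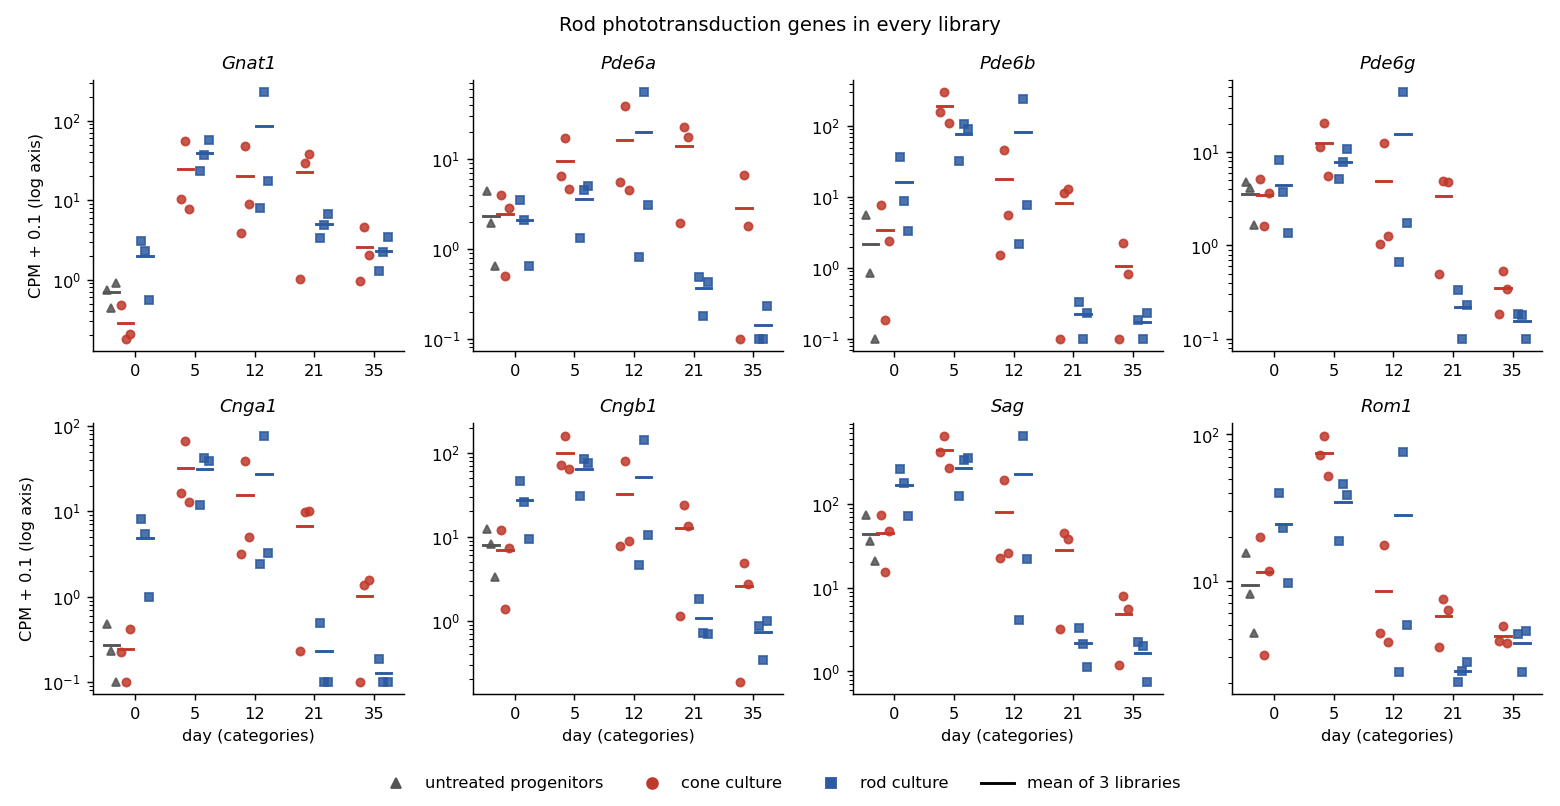
Level of each of the 8 genes in every library (CPM plus 0.1, log axis) against the day of culture, drawn as categories, with 3 libraries a group as points and their mean as a bar. In all 8 panels the highest rod culture point lies at day 12 in a single library, and the 3 rod culture points at day 21 lie below the 3 rod primed points for 7 of the 8 genes, all but Gnat1.

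The 8 genes together stood highest at day 5 in the cone culture and, in 1 library, at day 12 in the rod culture. Their summed level was 118, 59.0 and 31.3 CPM in the 3 untreated libraries. In the cone culture it was 122, 21.6 and 74.7 CPM after priming, 766, 1366 and 529 CPM at day 5, 49.0, 473 and 62.8 CPM at day 12, 10.9, 152 and 140.5 CPM at day 21 and 5.89, 32.4 and 17.8 CPM at day 35, in the order of the replicate numbers. In the rod culture the same sums were 404, 250.3 and 96.0 CPM after priming, 246, 667 and 666 CPM at day 5, 24.4, 1515 and 69.6 CPM at day 12, 11.3, 9.73 and 11.5 CPM at day 21 and 8.58, 6.63 and 9.55 CPM at day 35. The groups at day 5 lay wholly above those at days 21 and 35 in both cultures. The sum weighs Sag most, since levels per gene differed widely.

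Priming alone gave no called change in these genes. Between cone primed and untreated cells 0 of the 8 were called by edgeR, and 0% of all genes tested were, although 200 had an unadjusted p under 0.05. A called gene is one with an adjusted p (Benjamini-Hochberg) below 0.05. None of the 8 had an unadjusted p under 0.05 there, and DESeq2 also called 0. Between rod primed and untreated cells 0 of the 8 were called (10.3% of all genes were), 2 had an unadjusted p under 0.05 and DESeq2 called 1. That gene was Cnga1, the pore-forming channel subunit. It stood at 0.384, 0.133 and 0 CPM in untreated libraries and at 8.00, 5.34 and 0.898 CPM in rod primed ones, and the groups did not overlap. The log2 fold change (± SE from the model) was 4.98 ± 1.90 (edgeR adjusted p = 0.0955). Sag, rod arrestin, stood at 74.6, 35.8 and 20.9 CPM in untreated and 259, 179 and 70.8 CPM in rod primed libraries, and these groups overlapped. The median log2 fold change of the 8 was 1.70 in rod primed against untreated cells, beside 0.00 for all genes tested, and 0.02 in cone primed against untreated cells. Within the rod primed group replicate 1 was highest and replicate 3 lowest for all 8 genes, and within the cone primed group replicate 2 was lowest for all 8.

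By day 5 of cone culture 6 of the 8 genes had risen over cone primed cells, and by day 5 of rod culture 1 had risen over rod primed cells. In the cone culture Gnat1, Pde6b, Cnga1, Cngb1, Sag and Rom1 were called higher and none lower, where 12.2% of all genes were called higher. Pde6a and Pde6g were not called, although the libraries of the 2 groups did not overlap for any of the 8 (23.5% of all genes lay higher at day 5 without overlap). The median log2 fold change was 3.61, beside 0.05 for all genes. In the rod culture Gnat1 was called higher and none lower, a share of members near the 8.76% of all genes called higher. The groups did not overlap for Gnat1 and Cnga1, also near the share of all genes (21.0% lay higher without overlap). The median there was 1.10, beside 0.05 for all genes. Without cone primed replicate 2, the lowest library of its group, the calls in the cone culture fell from 6 to 3 (Gnat1, Pde6b and Cnga1). Without rod primed replicate 3 the call of Gnat1 in the rod culture was lost (adjusted p = 0.0669). The difference between the rises in the 2 cultures was not tested as such.

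Transducin's alpha subunit, Gnat1, was close to the detection limit in cone primed cells and was called higher in 5 of the 8 comparisons of a later day with primed cells. It stood at 0.378, 0.0808 and 0.105 CPM in cone primed libraries, a group with 5 counts in all. At day 5 of cone culture it stood at 10.2, 54.5 and 7.73 CPM, a log2 fold change of 7.08 ± 1.71 (edgeR adjusted p = 0.00373). It stayed called higher than in primed cells at day 12 and at day 21, with log2 fold changes of 6.83 ± 1.72 and 7.02 ± 1.71. The levels behind these values were 3.73, 47.6 and 8.89 CPM at day 12 and 0.918, 28.9 and 38.4 CPM at day 21. In rod primed libraries it stood at 2.98, 2.22 and 0.449 CPM and at day 5 of rod culture at 22.9, 36.5 and 57.6 CPM, a log2 fold change of 4.45 ± 1.23 (edgeR adjusted p = 0.013). All 3 rod culture libraries at day 5 lay above all 3 primed ones. At day 12 of rod culture the values were 7.85, 228 and 17.2 CPM, with a log2 fold change from primed cells of 5.56 ± 1.25 (edgeR adjusted p = 0.000827), or 2.80 (adjusted p = 0.0360) without replicate 2. At day 21 they were 3.24, 4.71 and 6.59 CPM, which was still above the primed libraries without overlap but was not called (1.45 ± 1.27). Gnat1 and Pde6a were the members not called lower than in primed cells at days 21 and 35 of rod culture.

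Of the 3 phosphodiesterase subunits Pde6b was called higher at day 5 of cone culture, and whether the subunits differed in their rise was not tested. Pde6b, the catalytic beta subunit, stood at 7.55, 0.0808 and 2.31 CPM in cone primed and 161, 303 and 111 CPM in day 5 cone culture libraries, a log2 fold change of 5.98 ± 1.50 (edgeR adjusted p = 0.00518). In the rod culture it went from 36.2, 8.77 and 3.23 CPM to 32.4, 108 and 91.0 CPM, and these groups overlapped. Pde6a, the catalytic alpha subunit that pairs with Pde6b, stood at 3.90, 0.404 and 2.72 CPM and 6.48, 17.0 and 4.53 CPM in the same cone groups, a log2 fold change of 2.06 ± 1.23 (edgeR adjusted p = 0.239). Its value in the rod culture at day 5 was 1.24, 4.43 and 4.93 CPM, overlapping the primed range of 0.539 to 3.39 CPM. Pde6g, the inhibitory gamma subunit, stood at 5.03, 1.54 and 3.56 CPM in cone primed and 11.3, 20.5 and 5.46 CPM in day 5 cone libraries (1.91 ± 1.03 (edgeR adjusted p = 0.193)). None of the 3 subunits was called in rod culture at day 5 against primed cells.

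Per kilobase of exon, Pde6b exceeded Pde6a at day 5 and not at day 21. The length used is that of all annotated exons of a gene together, which can exceed that of the transcripts present. A ratio between 2 genes is therefore approximate. The ratio of Pde6b to Pde6a in CPM per kb was 16.6 to 23.2 over the 3 cone culture libraries at day 5 and 17.2 to 24.4 over the 3 rod culture libraries. In rod primed cells it was 4.06 to 9.96, and in cone primed cells 0.187 to 1.81. At day 12 it was 0.238 to 1.15 in cone culture and 2.31 to 4.00 in rod culture, including the rod library in which every member was high. At day 21 it was 0 to 0.684 in cone culture and 0 to 0.560 in rod culture, where both genes rest on few counts. The 2 cultures therefore gave like ratios at day 5, and in both the ratio at day 12 lay below the day 5 range in all 3 libraries. These ratios are a description, with no test. For the 2 channel subunits the ratio of Cngb1 to Cnga1 was 1.62 to 3.41 in cone culture at day 5, 1.33 to 1.75 in rod culture at day 5, 1.22 to 1.69 in cone culture at day 12 and 1.24 to 2.23 in rod culture at day 12. In rod primed cells it was 3.28 to 7.03, and in cone culture at day 21 it was 0.897 to 5.41.

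**Figure D2:**
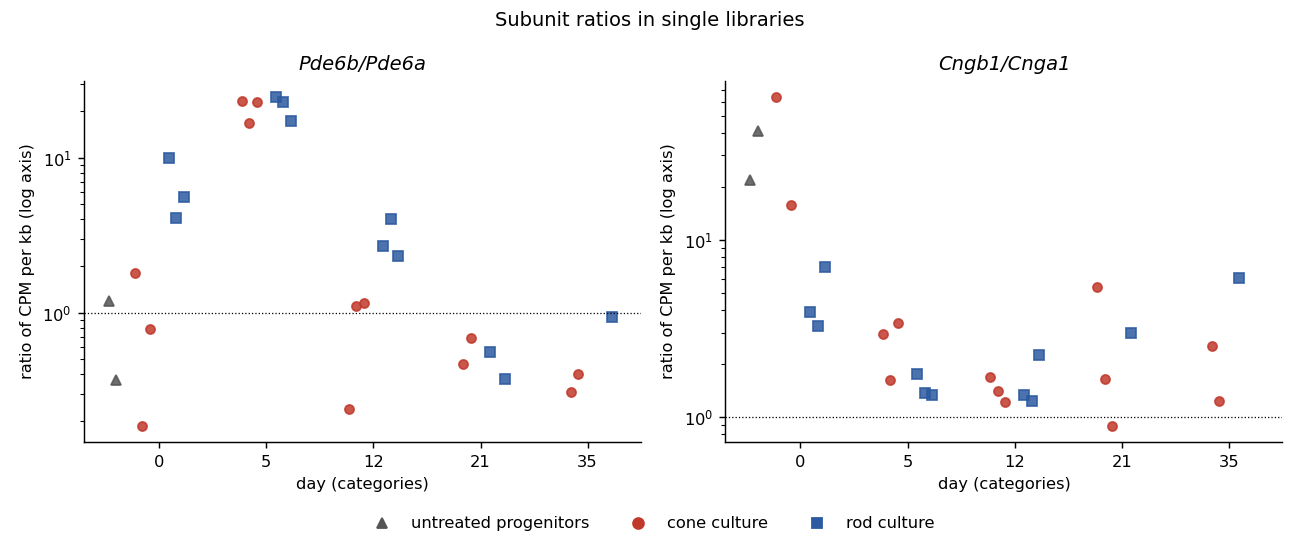
Ratio of CPM per kb of exon for Pde6b over Pde6a and for Cngb1 over Cnga1 in single libraries (log axis) against the day of culture. Libraries in which either gene had 0 counts are not drawn. At day 5 the Pde6b to Pde6a ratio lay between 16.6 and 24.4 in all 6 libraries, and at day 12 between 0.238 and 4.00.

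Both subunits of the cyclic GMP gated channel were called higher at day 5 of cone culture. Cnga1, which forms the pore, stood at 0.126, 0 and 0.314 CPM in cone primed libraries (4 counts in the group) and at 16.4, 66.9 and 12.8 CPM at day 5, a log2 fold change of 7.79 ± 1.76 (edgeR adjusted p = 0.00227). It stayed called higher at day 12 (3.03, 38.3 and 4.87 CPM, 6.75 ± 1.80 (edgeR adjusted p = 0.00297)) and at day 21 (0.131, 9.67 and 9.99 CPM, 5.56 ± 1.90 (edgeR adjusted p = 0.0155)). The day 21 call was lost without cone primed replicate 2 (adjusted p = 0.0638). Cngb1, the modulatory subunit, was present before culture at 11.8, 1.29 and 7.33 CPM in cone primed and 46.1, 25.9 and 9.34 CPM in rod primed libraries. At day 5 it stood at 71.2, 160.5 and 64.5 CPM in cone culture, a log2 fold change of 3.91 ± 1.12 (edgeR adjusted p = 0.0132). In rod culture at day 5 Cnga1 stood at 11.8, 42.3 and 38.1 CPM and Cngb1 at 30.4, 85.3 and 75.2 CPM. Neither was called there against rod primed cells, with log2 fold changes of 2.75 ± 1.13 and 1.25 ± 0.99.

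Sag and Rom1 had the smallest called rises at day 5 of cone culture. Both were detected in every day 0 library, as were Gnat1, Pde6a, Pde6g and Cngb1. Sag, rod arrestin, stood at 73.4, 15.2 and 46.8 CPM in cone primed and 418, 645 and 271 CPM in day 5 cone libraries, a log2 fold change of 3.31 ± 1.13 (edgeR adjusted p = 0.0357). This call was lost when any 1 of 5 libraries was left out, with adjusted p from 0.0506 without cone primed replicate 1 to 0.148 without cone primed replicate 2. In rod culture at day 5 Sag stood at 123, 337 and 349.8 CPM, against 259, 179 and 70.8 CPM in rod primed cells, and the groups overlapped. Rom1, the disc rim protein, stood at 19.9, 2.99 and 11.5 CPM in cone primed and 72.4, 98.2 and 52.2 CPM in day 5 cone libraries, a log2 fold change of 2.72 ± 0.83 (edgeR adjusted p = 0.0193). That call too was lost when any 1 of 3 libraries was left out, with adjusted p from 0.0552 without cone day 5 replicate 2 to 0.107 without cone primed replicate 2. In rod culture at day 5 Rom1 stood at 18.6, 45.8 and 38.3 CPM, so its day 5 libraries of the 2 cultures did not overlap.

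At day 12 replicate 2 of each culture stood far above the other libraries of its group. In rod culture replicate 2 held a summed member level of 1515 CPM, against 24.4 and 69.6 CPM in replicates 1 and 3. Sag stood at 4.07, 654 and 21.8 CPM, Pde6b at 2.07, 239.6 and 7.50 CPM and Pde6g at 0.571, 44.2 and 1.66 CPM in the 3 rod libraries. Replicate 2 was thus far above the others in each of them. In cone culture Sag stood at 22.5, 192 and 25.5 CPM, Pde6b at 1.40, 46.3 and 5.41 CPM and Pde6g at 0.933, 12.4 and 1.16 CPM, with replicate 2 again the highest. The following sums are for rod replicates 1, 2 and 3. Transcription factors of photoreceptors summed to 424, 1598 and 480.4 CPM, the cone versions of the members to 7.07, 47.2 and 12.8 CPM and bipolar cell markers to 179, 454 and 419.7 CPM, the last with replicates 2 and 3 close together. Müller glia markers summed to 4839, 3206 and 4369 CPM and progenitor markers to 2252, 1599 and 1980.0 CPM, lowest in replicate 2. The part of these other cell types in the result was not tested.

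Between days 5 and 12 of cone culture 2 of the 8 genes were called lower with all libraries, a share not far from the 18.6% of all genes. Pde6b had a log2 fold change of -3.41 ± 1.25 (edgeR adjusted p = 0.0295) and Rom1 of -3.11 ± 0.84 (edgeR adjusted p = 0.00404). Without cone day 12 replicate 2 the number called lower was 5, among them Sag (-4.20, adjusted p = 0.0124) and Cngb1 (-3.58, adjusted p = 0.0164). It was 1 without cone day 5 replicate 2 or either of the other cone day 12 replicates, when Pde6b was no longer called. In rod culture 0 of the 8 were called between days 5 and 12 (18.3% of all genes were), with 1 at an unadjusted p under 0.05 and 0 by DESeq2. Without rod day 12 replicate 2, 6 were called, all lower. Sag then had a log2 fold change of -4.39 (adjusted p = 0.00288), against -0.25 ± 1.03 with it, and Pde6b had -4.01, against 0.10 ± 1.13.

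Against primed cells, 2 members were called higher at day 12 in each culture. This share of members was near that of all genes called higher, 26.7% in cone culture and 24.2% in rod culture. In cone culture the 2 members were Gnat1 and Cnga1, described above. There 7 of the 8 log2 fold changes were positive (median 2.43), or 5 of 8 without cone day 12 replicate 2 (median 0.29). In rod culture they were Gnat1 and Pde6a, the latter at 0.714, 55.9 and 3.03 CPM with a log2 fold change of 3.39 ± 1.27 (edgeR adjusted p = 0.0328). Without rod day 12 replicate 2 the Pde6a value was -0.02, and Sag and Rom1 were called lower than in primed cells, at -3.71 (adjusted p = 0.00472) and -2.73 (adjusted p = 0.00340). The number called was 5 without rod day 12 replicate 1, the lowest library, and 1 without any 1 of the 3 rod primed libraries.

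Rod culture lost most of this expression by day 21. Between days 12 and 21 of rod culture all 8 members were called lower, where 6.29% of all genes were. The median log2 fold change was -6.47, beside 0.00 for all genes. This count rests on 1 library: without rod day 12 replicate 2 it was 0 of 8. The log2 fold changes without that library were still negative for all 8, from -5.19 for Pde6b to -0.63 for Rom1. Without rod day 21 replicate 3 the count was 5.

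When day 21 and day 35 rod culture are compared with rod primed cells, the log2 fold changes do not use day 12 levels. The SE and adjusted p do depend on them, since 1 fit of all 33 libraries gives the spread. In this comparison Pde6b, Pde6g, Cnga1, Cngb1, Sag and Rom1 were called lower at both days, where 23.6% of all genes were called lower at day 21 and 26.2% at day 35. Sag stood at 3.24, 2.01 and 1.04 CPM at day 21, against 259, 179 and 70.8 CPM in primed cells, a log2 fold change of -6.35 ± 1.41 (edgeR adjusted p = 0.000498). Cngb1 stood at 1.70, 0.618 and 0.587 CPM, a log2 fold change of -4.80 ± 1.32 (edgeR adjusted p = 0.00375). Rom1 stood at 1.93, 2.32 and 2.67 CPM, a log2 fold change of -3.36 ± 0.92 (edgeR adjusted p = 0.00359). For all 3 genes the day 21 libraries lay below the primed ones without overlap, as they did for 28.9% of all genes. Pde6b, Pde6g and Cnga1 had 5 counts each in the 3 day 21 libraries together. These 3 calls were lost without rod primed replicate 1, when 3 of 8 were called (adjusted p = 0.0749 for Pde6b, 0.0510 for Pde6g and 0.0767 for Cnga1). The Cnga1 call was also lost without any 1 of 3 other libraries (rod primed replicate 2, and rod day 21 replicates 2 and 3), with adjusted p up to 0.0812.

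By day 35 of rod culture 4 members had 1 to 3 counts in the whole group, so ratios of counts with their 95% exact intervals are given. The level in rod primed cells was 181 times that at day 35 for Pde6b (interval 61.5 to 882), 76.6 times for Pde6g (20.7 to 641), 170 times for Cnga1 (29.9 to 6769) and 35.5 times for Pde6a (9.35 to 301). These intervals cover counting error only. Sag stood at 2.12, 1.94 and 0.646 CPM, and its log2 fold change from primed cells was -6.79 ± 1.46 (edgeR adjusted p = 0.000299). The calls of Pde6b and Rom1 at day 35 were lost without rod primed replicate 1 (adjusted p = 0.0623 and 0.0592). Between days 21 and 35 of rod culture 0 of 8 were called (1.54% of all genes were), with 0 at an unadjusted p under 0.05 and 0 by DESeq2.

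In cone culture at day 21 Gnat1 and Cnga1 were called higher than in cone primed cells and none lower, a share of members near the 29.4% of all genes called higher. Without cone day 21 replicate 1 the number was 3, with Pde6a added. Sag stood at 3.15, 44.3 and 37.6 CPM, Cngb1 at 1.05, 23.5 and 13.2 CPM and Pde6a at 1.84, 22.5 and 17.5 CPM. In each, replicate 1 lay far below replicates 2 and 3. At day 35 Sag and Pde6g were called lower than in cone primed cells, a share of members near the 26.5% of all genes called lower. Sag stood at 1.11, 7.81 and 5.41 CPM, a log2 fold change of -3.23 ± 1.24 (edgeR adjusted p = 0.028), and Pde6g at 0.0853, 0.429 and 0.242 CPM, with -3.66 ± 1.48 (edgeR adjusted p = 0.0361). Both calls were lost without cone primed replicate 1, cone day 35 replicate 1 or cone day 35 replicate 3, and that of Pde6g also without cone primed replicate 3 or cone day 35 replicate 2. Between neighbouring days 0 of 8 were called from day 12 to 21 (3.36% of all genes were) and 0 from day 21 to 35 (0.915%). The counts at an unadjusted p under 0.05 were 0 and 4, and DESeq2 called 0 in each. From day 12 to 21 the direction turned with 1 library: 7 of 8 log2 fold changes were negative with all libraries, and all 8 were positive (0.26 to 1.84) without cone day 12 replicate 2.

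**Figure D3:**
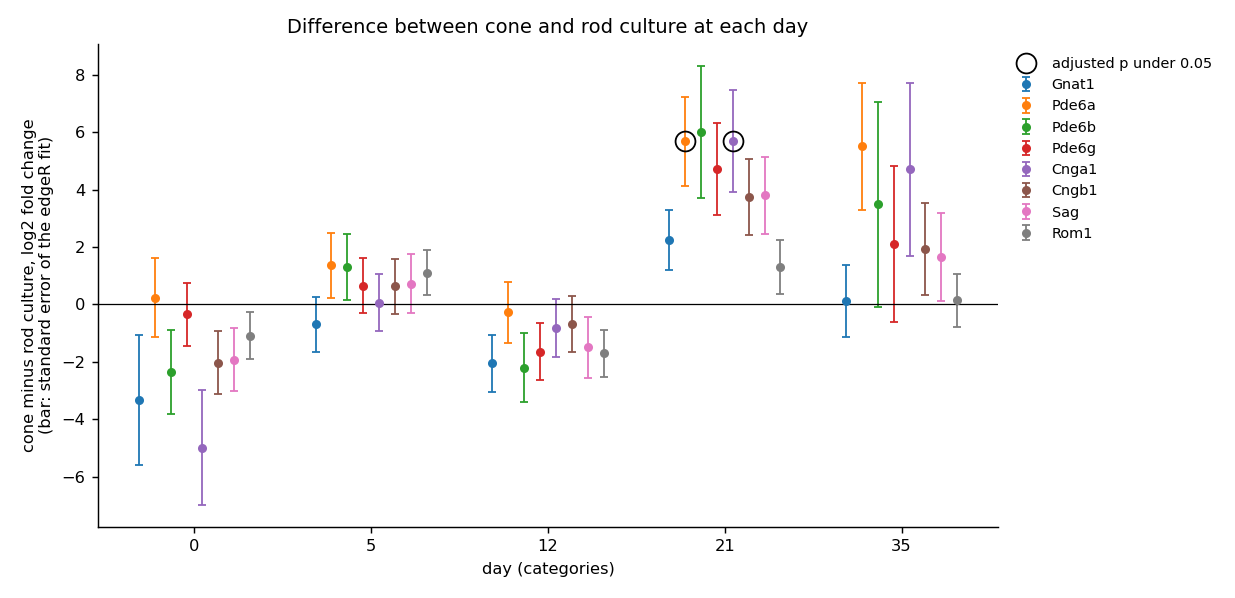
Difference between cone and rod culture in log2 fold change, with the standard error of the edgeR fit as bars, for each of the 8 genes at days 0, 5, 12, 21 and 35. Values above 0 mean higher in cone culture. Circles mark the 2 called values, Pde6a and Cnga1 at day 21.

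Cone and rod culture were compared directly at each day to ask whether the rod genes depended on the condition. At day 21, 2 of the 8, Pde6a and Cnga1, were called higher in cone culture, and the libraries of the 2 cultures overlapped for 5 of the 8. The summed level was 10.9, 152 and 140.5 CPM in cone culture and 11.3, 9.73 and 11.5 CPM in rod culture, so cone replicate 1 lay within the rod range. Pde6a stood at 1.84, 22.5 and 17.5 CPM in cone and 0.386, 0.0772 and 0.326 CPM in rod culture, with no overlap and a log2 fold change of 5.68 ± 1.56 (edgeR adjusted p = 0.0204). Cnga1 stood at 0.131, 9.67 and 9.99 CPM in cone and 0.386, 0 and 0 CPM in rod culture, and the groups overlapped through cone replicate 1. Its log2 fold change was 5.70 ± 1.79 (edgeR adjusted p = 0.044). All 8 differences were positive, from 1.31 ± 0.95 for Rom1 to 6.00 ± 2.31 for Pde6b, with a median of 4.26, beside 0.03 for all genes. An unadjusted p under 0.05 was reached by 7 of 8. Summed markers of microglia (8 genes, none at 0 in either group) stood at 16.5 to 40.6 CPM in cone and 0.772 to 3.00 CPM in rod culture at day 21, those of amacrine and horizontal cells at 189.9 to 236 and 145 to 172 CPM, and those of progenitors at 1620.0 to 1740.0 and 2022 to 2301 CPM. Markers of retinal ganglion cells (10 genes, none at 0 in either group) stood at 53.4 to 66.9 CPM in cone and 79.0 to 142.8 CPM in rod culture. Each of these lists was without overlap between the cultures, and their part in the result was not tested. Of the 10 amacrine and horizontal markers none was at 0, and of the 12 progenitor markers Fgf15 was at 0 in both groups. Some markers that were not at 0 had 3 or fewer counts in a whole group. These were the ganglion cell markers Pou4f2 in both cultures, Pou4f3 in cone culture and Sncg in rod culture. In rod culture they were also Lhx1 of the amacrine and horizontal list and Aif1 of the microglia list. Of all genes 5.86% were called higher, and 14.5% lay higher in cone culture without overlap. Pde6g and Rom1 were also without overlap and were not called (adjusted p = 0.0632 and 0.449). The count fell from 2 to 0 without cone day 21 replicate 2 or any 1 rod day 21 library, and to 1 without cone day 21 replicate 3. It was 2 without cone day 21 replicate 1. With DESeq2 it was 6, and with a fit of the compared libraries alone it was also 6.

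At the other days the direct comparison called none of the members. At day 0, 0 of 8 were called (7.27% of all genes were), 1 had an unadjusted p under 0.05 and DESeq2 called 1. Gnat1 and Cnga1 lay lower in cone primed than in rod primed cells without overlap, as did 15.5% of all genes. At day 5, 0 of 8 were called (9.28% of all genes), 0 had an unadjusted p under 0.05 and DESeq2 called 0. Pde6b and Rom1 lay higher in cone culture at day 5 without overlap (16.8% of all genes did), at log2 fold changes of 1.31 ± 1.15 and 1.11 ± 0.77. This comparison is of the levels at day 5 and not of the rises from the primed cells. At day 12, 0 of 8 were called (10.1% of all genes), 2 had an unadjusted p under 0.05 and DESeq2 called 0. All 8 differences at day 12 were negative, with a median of -1.57. Without rod day 12 replicate 2 all 8 were positive, from 0.70 to 3.13, with 0 called. Without cone day 12 replicate 2 all 8 were negative and Gnat1 was called (-3.70, adjusted p = 0.0463). Without both, 5 of 8 were positive. The direction at day 12 thus turned with 1 library.

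At day 35, 0 of 8 were called (12.3% of all genes), 1 had an unadjusted p under 0.05 and DESeq2 called 1, Pde6a. Pde6a stood at 0, 6.52 and 1.70 CPM in cone and 0, 0 and 0.129 CPM in rod culture, a ratio of 53.7 (95% exact interval of counting error 14.5 to 450.1), and the libraries overlapped at 0. Over the mean of days 5 to 35, 1 of 8 was called higher in cone culture, a share near the 15.6% of all genes called higher. It was Pde6a again, with a log2 fold change of 3.07 ± 0.78 (edgeR adjusted p = 0.00395). Without rod day 12 replicate 2 the number was 7, all but Gnat1. It was 2, with Cnga1 added, without replicate 1 of the cone culture at day 12, 21 or 35. An F test over the 5 days asked whether the difference between the cultures varied from day to day. It called 1 of 8, a share near the 9.22% of all genes called: Cnga1, with an adjusted p of 0.0497 by edgeR. This call was lost in 22 of 30 fits that left out 1 library, and the number called was 6 without cone day 12 replicate 2, 5 without rod day 12 replicate 1 and 2 without rod day 12 replicate 2.

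The order of the groups by mean level put cone culture at day 5 first for Pde6b, Cnga1, Cngb1, Sag and Rom1. Rod culture at day 12 came first for Gnat1, Pde6a and Pde6g, and this place rests on replicate 2. Of the 80 pairs of neighbours in the order, 78 overlapped. The exceptions were Pde6a, where rod primed cells (0.539 to 3.39 CPM) lay above rod culture at day 21 (0.0772 to 0.386 CPM), and Rom1. For Rom1, cone culture at day 5 (52.2 to 98.2 CPM) lay wholly above rod culture at day 5 (18.6 to 45.8 CPM).

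The cone versions of the members did not share the day 5 rise. Of the 6 genes on that list, Gnat2, Pde6c, Cnga3, Cngb3 and Arr3 passed the filter and Pde6h did not. Against cone primed cells at day 5, 0 of 5 were called higher and 2 lower, where 10.2% of all genes were called lower. Gnat2, the cone transducin alpha subunit, had a log2 fold change of -1.71 ± 0.51 (edgeR adjusted p = 0.0158) where Gnat1 had 7.08 ± 1.71. Cnga3, the cone channel subunit, had -2.21 ± 0.63 (edgeR adjusted p = 0.0127) where Cnga1 had 7.79 ± 1.76. Against rod primed cells at day 5, 0 were called higher and 2 lower (8.79% of all genes were called lower), Cnga3 and the catalytic subunit Pde6c. The 2 calls in cone culture fell to 0 without cone day 5 replicate 2, and those in rod culture to 1 without rod primed replicate 2. By day 35 all 5 were called lower than in primed cells in both cultures, or 4 in rod culture without rod day 35 replicate 1. Of all genes 26.5% were called lower in cone culture and 26.2% in rod culture. The cone versions are described further by their sums. Their summed level with Pde6h was 184 to 218 CPM in the untreated group, 62.0 to 80.2 CPM in cone culture at day 5 and 42.4 to 70.1 CPM in rod culture at day 5. The difference in change between the rod genes and their cone versions was not tested.

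**Figure D4:**
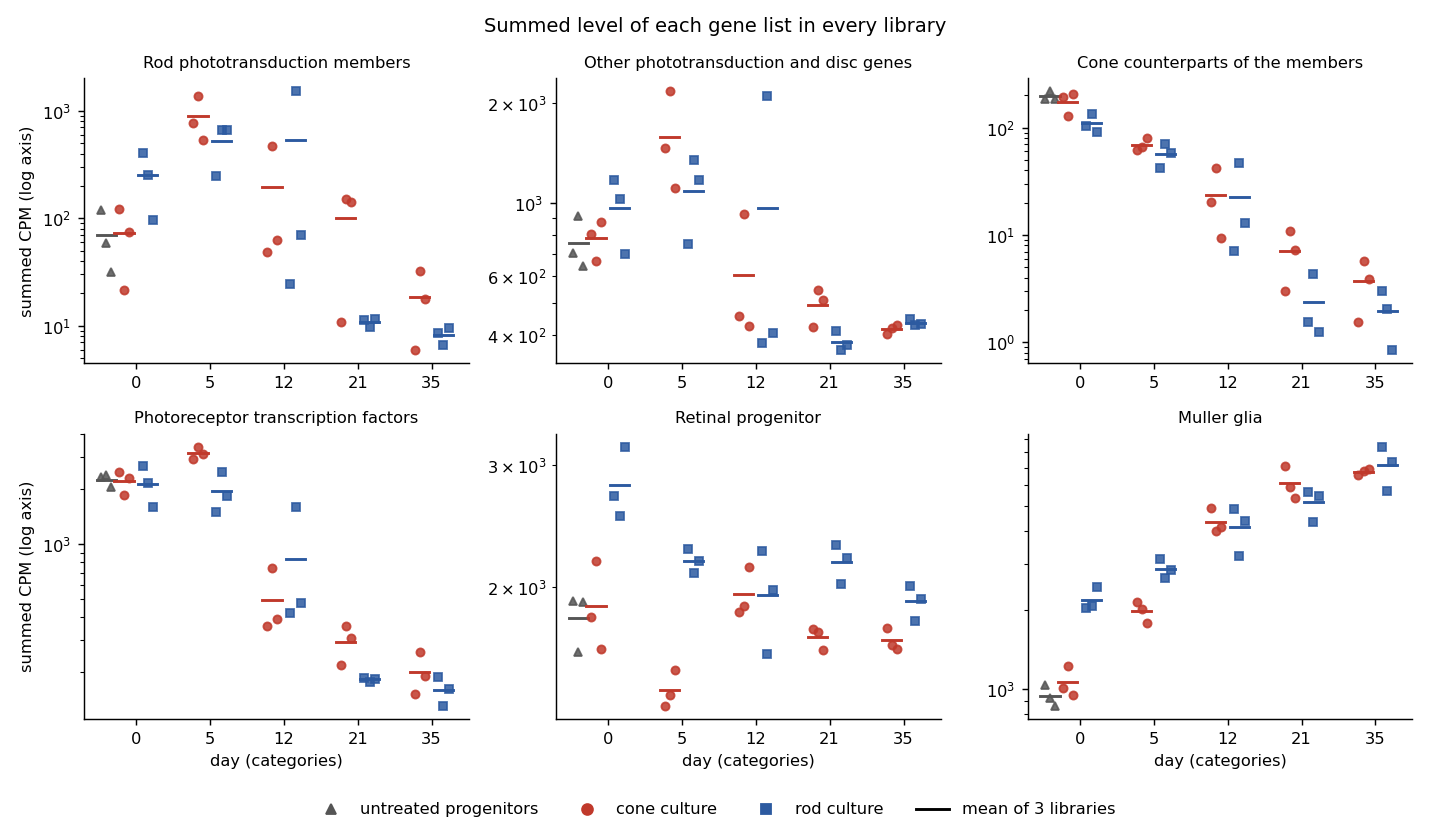
Summed level (CPM, log axis) of 6 gene lists in every library against the day of culture, with 3 libraries a group as points and their mean as a bar. The rod genes peak at day 5 in cone culture, their cone versions are highest at day 0, and Müller glia markers are highest at days 21 and 35.

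Other genes of the cascade and the disc moved with the members at day 5 of cone culture. Of 16 such genes 15 were tested. In cone culture at day 5 the median log2 fold change of the 15 was 2.68. Of them 8 were called higher than in primed cells and none lower, where 12.2% of all genes were called higher. Among them were Reep6, a membrane protein needed by rods (2.68 ± 0.57, edgeR adjusted p = 0.00139), Gnb5, the G protein beta subunit that partners Rgs9 (0.76 ± 0.26, edgeR adjusted p = 0.0352), the rhodopsin kinase Grk1 (6.23 ± 1.30, edgeR adjusted p = 0.00116) and the guanylate cyclase Gucy2e (3.20 ± 1.09, edgeR adjusted p = 0.0356). The count was 4 without cone primed replicate 2. In rod culture at day 5, 2 of 15 were called higher (8.76% of all genes were): the calcium sensor Rcvrn and the exchanger Slc24a1. That count ran from 0 to 3 with 1 library left out, at 0 without rod primed replicate 3. Between days 12 and 21 of rod culture 8 of 15 were called lower and none higher, where 6.29% of all genes were called lower. Without rod day 12 replicate 2 the number called was 1 of 15. At day 21, 4 of 15 were called higher in cone than in rod culture (Pdc, Grk1, Rcvrn and Slc24a1) and none lower. Of all genes 5.86% were called higher, and the count of the list was 0 without cone day 21 replicate 2. The beta subunit of transducin, Gnb1, which other cells also use, was not called in any of these.

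Photoreceptor transcription factors were already measured at day 0. In untreated cells the 10 on the list summed to 2064 to 2400.0 CPM, and in cone culture at day 5 to 2928 to 3402 CPM. Rorb and Mef2d (mean log2 CPM over all libraries 8.15 and 6.6) weigh far more in this sum than Samd7 and Nr2e3 (3.06 and 1.94). The sum therefore says little of factors at low levels. Priming called 0 of 10 in cone primed and 1 of 10 in rod primed cells against untreated cells, Samd7 (4.01 ± 0.92, edgeR adjusted p = 0.00531). The shares of all genes called there were 0% and 10.3%. In cone culture at day 5, 2 of 10 were called higher than in primed cells, where 12.2% of all genes were. They were Nr2e3 (4.18 ± 1.41, edgeR adjusted p = 0.0342) and Samd7 (4.24 ± 0.90, edgeR adjusted p = 0.00129). Nr2e3 is a nuclear receptor of rods, and the count was 1 without cone primed replicate 2. Nrl, the leucine zipper factor required for rods, had 2.43 ± 1.02 and was not called. In rod culture at day 5, 0 of 10 were called by edgeR, and 1, Rorb, had an unadjusted p under 0.05. Between days 5 and 12 of cone culture 9 of 10 were called lower (18.6% of all genes were), and between days 12 and 21 of rod culture 8 of 10 were (6.29%), or 5 without rod day 12 replicate 2. By day 35, 8 of 10 were called lower than in primed cells in cone culture (26.5% of all genes) and 9 of 10 in rod culture (26.2%).

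The genes whose pattern was most like that of the 8 were found by Pearson's correlation over the 11 group means of log2 CPM, among 11911 genes whose log2 CPM averaged 1 or more. With the mean profile of the members, the 5 most alike were Prph2 (r = 0.985), Impg1 (0.982), Nr2e3 (0.961), Abca4 (0.957) and Mpp4 (0.956). Single members differed in their nearest genes. Sag was most like Samd7 (r = 0.989), Cngb1 and Pde6g most like Mpp4 (0.982 and 0.973), Pde6b most like Abca4 (0.981), Rom1 most like Klhl18 (0.973), Pde6a most like Nckap5 (0.953) and Gnat1 most like Sox5 (0.925). These values are descriptions. The 11 means share their libraries, and the mean of rod culture at day 12 is set by 1 library.

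The TPM values deposited by the authors did not follow the counts for these genes. Of the 264 member values, 140 were listed at 0 in TPM, and 94 of those had 10 or more counts. In Sag the highest count was 10607 and the highest TPM 3.31. The same held beyond the members. The mitochondrial gene mt-Nd6, the 1 of 13 mitochondrial protein genes on the light strand, took 0.82% to 2.22% of those genes' counts and 73.0% to 85.1% of their TPM. Results here therefore rest on the counts, and TPM was used only as an alternative.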

How the data were processed

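Counts and abundances were measured by RNA sequencing of 33 libraries. Raw read counts of 47729 genes were deposited by the authors, with 5 summary lines that were left out; 26.9% to 34.9% of counted reads were assigned to genes. Separate tables give each gene's TPM, FPKM and coverage, per the file headers; of these the deposited TPM served for 1 alternative, and the FPKM and coverage deposited by the authors entered no test. HISAT2, StringTie and HTSeq and the build GRCm38 are named in the submitters' processing notes; the strand setting is not given in the sources used here. No exon of the 8 genes overlaps another gene's exons, so an unknown strand setting cannot give them another gene's reads, but it can change how many of their own were counted. Gene symbols were taken from the abundance tables by identifier.

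Genes were filtered with filterByExpr of edgeR (minimum count 10), and 18150 of the 32488 genes that had a count passed. Scaling was by TMM. A single quasi-likelihood model of the 11 groups was fitted to all 33 libraries (edgeR 4.0.16, limma 3.58.1, R 4.3.3), with Benjamini-Hochberg adjustment over all genes tested within each of 23 comparisons. SE is the log2 fold change divided by the square root of F. The common biological coefficient of variation was 0.213. The fit was checked on simulated data for cone against rod at day 12 with 17499 genes tested: 52% of 2-fold and 71% of 4-fold changes were recovered, with 4 false calls. Alternatives were RLE scaling, no filter, voom with quality weights, DESeq2 1.42.0, a minimum mean of 1 CPM, limma on log2(TPM + 1), a fit of the compared libraries only, a replicate block and leaving out each library; leaving out both day 12 libraries numbered 2 was added after seeing the data.

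The 8 genes and the gene lists were chosen with earlier results of these data known. The rule for naming was: all 8 members; of the other lists, counts and at most 4 called genes a comparison, those with the highest mean log2 CPM, and each cone version beside its rod member; and the 5 genes most like the members. The gene most like Cnga1 is not reported here. Rorb in rod culture at day 5, and Nrl and Gnb1, which were not called where they are named, were named after their values were seen. Levels and figures used Python 3.11.15, pandas 2.3.3 and matplotlib 3.10.9.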

Additional observations from a re-analysis of the deposited data

Results flagged for a closer look

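The difference between cone and rod culture in Cnga1, the pore-forming channel subunit, changed with day by the test of the change itself (edgeR F test over the 5 days, adjusted p = 0.0497). On the log2 scale the cone culture lay below the rod culture at day 0 (-4.99 ± 1.99), near it at day 5 (0.05 ± 0.99) and day 12 (-0.82 ± 1.01), and above it at day 21 (5.70 ± 1.79) and day 35 (4.71 ± 3.01), of which the day 21 value was called. The day 0 value rests on 4 counts in cone primed libraries and the day 35 value on 1 count in rod culture. The adjusted p lies just under the threshold, and it rose above 0.05 in 22 of 30 fits that left out 1 library.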

How the results depend on the processing

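Numbers are members called of 8, with the reported number first. With voom quality weights the count went from 0 to 1 at day 0 and at day 5 (cone minus rod), 0 to 2 (rod primed minus untreated), 2 to 0 (cone day 12 minus primed), 1 to 3 (rod day 5 minus primed), 6 to 3 (rod day 35 minus primed), 2 to 5 (cone day 12 minus day 5), 0 to 1 (cone day 35 minus day 21), 0 to 6 (rod day 12 minus day 5) and 8 to 0 (rod day 21 minus day 12). With the compared libraries only it went from 0 to 3 at day 0, 0 to 1 at day 5 and 2 to 6 at day 21 (cone minus rod), 0 to 2 (rod primed minus untreated), 1 to 3 (rod day 5 minus primed), 2 to 1 (rod day 12 minus primed), 8 to 0 (rod day 21 minus day 12) and 1 to 0 (change with day). With DESeq2 it went from 0 to 1 at days 0 and 35, 2 to 6 at day 21 and 1 to 4 over the mean of days (cone minus rod), 0 to 1 (rod primed minus untreated), 2 to 1 (cone day 12 minus day 5) and 1 to 5 (change with day). Without the filter it was 5 at day 21, 2 over the mean of days and 3 for the change with day, and with RLE the last was 0. On log2(TPM + 1) it was 2 in cone day 5 minus primed, and 0 in cone minus rod at day 21 and for its mean over days, in cone and rod culture minus primed at days 12, 21 and 35, in rod day 21 minus day 12 and for the change with day. The deposited TPM did not follow the counts of these genes, so the numbers on TPM cannot show whether the results hold. Without both day 12 libraries numbered 2 it was 6 over the mean of days, 6 in cone day 12 minus day 5, 6 in rod day 12 minus day 5, 0 in rod day 21 minus day 12 and 5 for the change with day.

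Over fits that each left out 1 library, the count ran from 0 to 1 at day 12, 0 to 2 at day 21 and 1 to 7 over the mean of days (cone minus rod). It ran from 3 to 6, 2 to 3, 1 to 3 and 0 to 2 in cone culture against primed cells at days 5, 12, 21 and 35, and from 0 to 1, 1 to 5, 3 to 6 and 4 to 6 in rod culture. It ran from 1 to 5 (cone day 12 minus day 5), 0 to 6 (rod day 12 minus day 5), 0 to 8 (rod day 21 minus day 12) and 0 to 6 (change with day).

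A replicate block was fitted because groups share the replicate numbers 1 to 3. Of 15 same-numbered pairs of cone and rod libraries of a day, 5 had deviations correlated over 0.1. Their r ran from -0.226 to 0.513, the highest for number 2 at day 12. Of 30 libraries, 9 correlated best with their own number. With 3 libraries a group these values cannot decide whether same-numbered libraries share a batch or culture, and the labels do not say. With the block the count was 2 over the mean of days, 1 in rod primed minus untreated and 1 in rod day 12 minus primed.

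Of 2984 single-gene values under alternatives, 2695 kept direction and call, 155 lost and 119 gained a call, and 15 reversed. The values on log2(TPM + 1) are among them, although the TPM did not follow the counts. In rod day 12 minus primed the log2 fold changes over fits that left out 1 library ran from -0.017 to 3.98 (Pde6a), -3.71 to 1.01 (Sag) and -2.73 to 0.78 (Rom1), and in rod day 12 minus day 5 from -4.01 to 0.68 (Pde6b) and -2.82 to 1.54 (Pde6g), each lowest without rod day 12 replicate 2. Without both libraries numbered 2 they were -0.021 (Pde6a), -3.71 (Sag), -2.73 (Rom1), -4.01 (Pde6b) and -2.82 (Pde6g). With voom they were -2.85 (Sag) and -2.02 (Rom1) in rod day 12 minus primed and -3.00 (Pde6b) and -2.13 (Pde6g) in rod day 12 minus day 5. On log2(TPM + 1) Rom1 was at 0.11 in rod day 21 minus primed. The cause was not tested for any of these beyond the library left out. Depth limits the late rod culture: at day 35 Pde6a, Pde6b, Pde6g and Cnga1 had 3 or fewer counts in the whole group.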
